A study of Homo sapiens with 11 samples.

Results

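Batch 3 of a study of LX-2 cells comprised 3 RNA-seq libraries, and these were set against the 6 RNA-seq libraries of batches 1 and 2. They were chosen by the batch number in the labels from the 11 samples of the series, of which 9 were RNA-seq libraries. LX-2 (Lx2 in the labels, wild type) is a human hepatic stellate cell line made immortal for culture, and was grown in DMEM with serum. Each batch held 1 library of cells given PBS, 1 of cells infected with the HIV-1 strain BaL at a multiplicity of infection of 0.1, and 1 of infected cells that also received lipoteichoic acid (LTA, a Gram-positive cell wall component) at 1 µg/ml, all for 24 h. Treatment and batch were therefore balanced. The labels give the batches as numbers only and do not say what separates them. A batch is shared by its 3 libraries, so the p-values given here measure the spread between libraries and not the spread between batches.

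Stellate cells are the vitamin A-storing pericytes of the liver sinusoid. On injury they turn into contractile myofibroblasts that lay down collagen, a change driven by TGF-beta, PDGF and mechanical signals read by YAP and TEAD. Lines of such cells keep the myofibroblast programme in culture, and they sense bacterial products through Toll-like receptors.

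Read depth overlapped between the batches. Batch 3 libraries held 50628144 to 62150822 counted reads and the other 6 held 55168033 to 90599780. Mitochondrially encoded transcripts took 1.18% to 1.44% of reads in batch 3 and 1.11% to 1.47% elsewhere. The 100 most abundant genes took 16.5% to 17.97% of reads in batch 3 and 15% to 16.4% in the other libraries, and the TMM scaling factors were 0.899 to 0.958 against 1.01 to 1.08. The part of these differences in the results was not tested.

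The transcriptome of batch 3 differed from that of batches 1 and 2 in most expressed genes, with about as many higher as lower. Of 16117 genes with enough counts, 5528 (34.3%) were higher and 5727 (35.5%) lower in batch 3 in edgeR's quasi-likelihood test with treatment as a covariate (Benjamini-Hochberg adjusted p below 0.05), 69.8% in all. A change of at least 2-fold was reached by 1278 of the higher (7.93% of genes tested) and 1794 of the lower genes (11.1%). In 9797 genes (60.8%) the 3 batch 3 libraries did not overlap the other 6, with 4924 above (30.6%) and 4873 below (30.2%). Against batch 1 alone the test called 66.7% of genes (33.4% higher and 33.3% lower), and against batch 2 alone 67.8% (32.9% higher and 34.9% lower). Between batches 2 and 1 the same test called 5 genes (0.031%), with 1869 at an unadjusted p below 0.05; the count was 105 in DESeq2, 214 without the HIV-1+LTA library of batch 1 and 127 without that of batch 2. These 5, all higher in batch 2, were the matrix genes ABI3BP, COL6A1, COL6A2 and HSPG2 (perlecan) and the melanotransferrin gene MELTF. Scaling by total counts alone moved the median log2 difference from -0.02 to -0.18 and the split to 4162 higher and 7296 lower genes, so differences of that size have no settled direction.

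**Figure D1:**
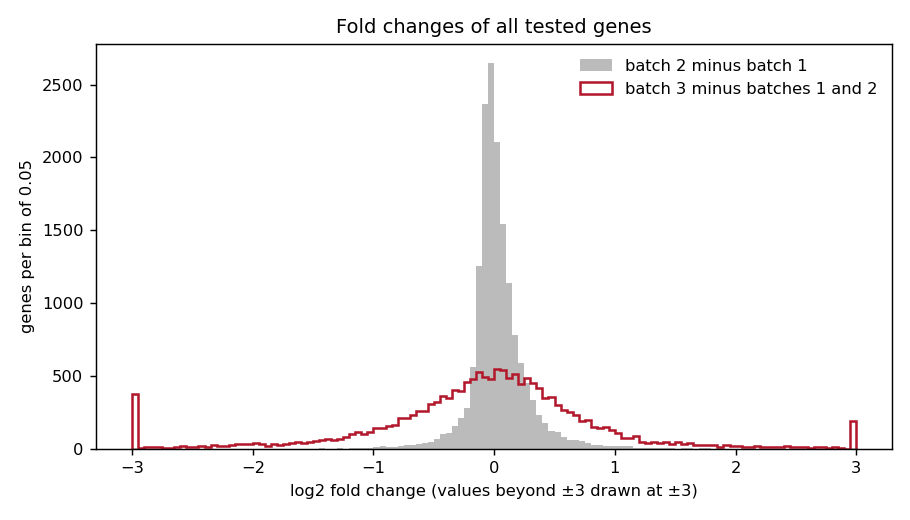
Histogram of log2 fold changes of the 16117 genes tested, in bins of 0.05, for batch 3 minus batches 1 and 2 (red line) and batch 2 minus batch 1 (grey). The median absolute log2 fold change was 0.44 in the first comparison and 0.091 in the second.

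The difference was nearly the same under each treatment. Across the 9319 genes that averaged 10 or more CPM (reads of a gene per 1000000 reads of its library after TMM scaling), the batch 3 difference measured in PBS and in HIV-1 libraries correlated at r = 0.983, that in PBS and HIV-1+LTA at 0.968, and that in HIV-1 and HIV-1+LTA at 0.973. Genes do not count as replicates in these values, which run across genes. Of the 11255 called genes, 11205 (99.56%) had the same sign under all 3 treatments. The calls came from these same libraries, so that share was largely set by the calling and is no separate support. The test of whether the batch 3 difference depended on treatment called 0 genes in edgeR, with 345 at an unadjusted p below 0.05, and 2 in DESeq2. Among the 5 lowest p-values in edgeR were those of the apoptosis inhibitor gene BIRC3, the calcium-binding protein gene S100A6, COL6A3 and SEMA3B. S100A6 stood at 99.8 (PBS), 101 (HIV-1) and 177 CPM (HIV-1+LTA) in batch 3, against 201 to 235 CPM in the other 6 libraries. The test of dependence on treatment had 1 batch 3 library per treatment and took its spread from batches 1 and 2 alone. Few calls therefore do not show that the difference was equal.

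There were 29 genes with at least 50 reads in each of the 6 libraries of batches 1 and 2 and at most 3 reads in each library of batch 3, and 9 genes with the reverse pattern. No gene met that rule between batches 1 and 2. Of the 29, 13 had no read at all in batch 3, among them DCN, PGR, ACSS3, LUM, CNTN5, L3MBTL4, KCNT2, ZNF704, SGCD, SATB1 and MAGEA3. This rule, and the naming of CNTN5, L3MBTL4 and MAGEA3, came after the values were seen. A fold against a group with no reads is given below as a bound, with 3 reads over the group as the floor; where a few reads remained it is the ratio of pooled levels with its 95% counting interval.

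Among the silent genes were secreted and adhesion genes of fibroblasts. LUM, which encodes the collagen-binding proteoglycan lumican (hg19, chromosome 12, 91496406 to 91505271), was at 0 CPM in all batch 3 libraries and at 3.10 (lowest), 4.54 (median) and 8.62 CPM (highest) in the other 6, at least 265-fold lower. Its neighbour DCN, which encodes decorin (91534261 to 91576994), was also at 0 against 0.934, 1.23 and 2.54 CPM, at least 72.8-fold lower. KCNT2, a potassium channel gene, had no reads either and was at least 135-fold lower. No batch 3 library reached the range of the others for any of these 3 genes, which the rule on reads above required.

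ITGA4, the alpha 4 integrin chain that binds VCAM1 and fibronectin, was at 0.08 (PBS), 0.0173 (HIV-1) and 0 CPM (HIV-1+LTA) in batch 3, against 8.27, 11.2 and 12 CPM in the other 6 libraries (log2 fold change -8.32, SE 0.32, adjusted p 2e-10). The nuclear receptor gene PGR (progesterone receptor) was at least 145-fold lower, the chromatin organiser SATB1 at least 170-fold, the acyl-CoA synthetase ACSS3 at least 259-fold, the sarcoglycan SGCD at least 122-fold and the zinc finger gene ZNF704 at least 104-fold. A few reads were left for UGT3A2, a glycosyltransferase gene (1130-fold lower, interval from 204), for ARAP2, a GTPase-activating protein gene (983-fold, from 272), for KCNN4, a calcium-activated potassium channel gene (802-fold, from 313), for LRRTM3 (466-fold, from 83.5) and for ENPP5 (330-fold, from 59.1). Under no treatment did any of these genes return to the level of batches 1 and 2. The rule that named them required this, because it took only genes without overlap between the libraries.

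Other genes were expressed in batch 3 and nearly absent from batches 1 and 2. PDPN encodes podoplanin, a membrane glycoprotein of activated fibroblasts and lymphatic endothelium, and stood at 20.5 (PBS), 18.1 (HIV-1) and 19.6 CPM (HIV-1+LTA) in batch 3, against 0.0865 (lowest), 0.128 (median) and 0.15 CPM (highest) in the rest. All 3 libraries were far above the other 6 (log2 fold change 7.31, SE 0.13, adjusted p 3.5e-13). A lack of overlap was part of the rule that named this gene and the next 3. PLCB1, which encodes a phospholipase C, was at 38.4, 37.1 and 36.5 CPM against 0.38, 0.502 and 0.648 (log2 fold change 6.20, SE 0.10). SEMA3A, a secreted semaphorin, was at 148, 142 and 191 CPM against 2.86, 3.45 and 4.80 (5.48, SE 0.07). CYP24A1, the enzyme that inactivates vitamin D, was at 235, 203 and 153 CPM against 3.31, 4.71 and 7.27 (5.27, SE 0.14). Within these 4 genes the treatments differed little next to the distance between batches.

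ARSD, a sulfatase gene of the X chromosome, had 1257 reads in batch 3 and 3 in the other 6 libraries together, a ratio of 1150 (95% counting interval from 393). The remaining genes of the 15 highest were KRBOX1 (8.03), SLFN14 (6.93), GABRA5 (6.44), CPXM1 (6.10), FOLR3 (5.92), OPCML (5.82) and PGM5 (5.20), with log2 fold changes in parentheses, and the zinc finger genes ZNF626, ZNF66 and ZNF98. OPCML, a cell adhesion gene, was at 12.2, 13.8 and 10.9 CPM against 0.0854, 0.20 and 0.383. Also outside the naming rule and picked after their values were seen, B3GAT1 had 210 reads against 1 and the carboxylesterase CES1 292 against 3; CES1 shares reads with its pseudogene CES1P1 (207 against 3), so its own level is uncertain.

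**Figure D2:**
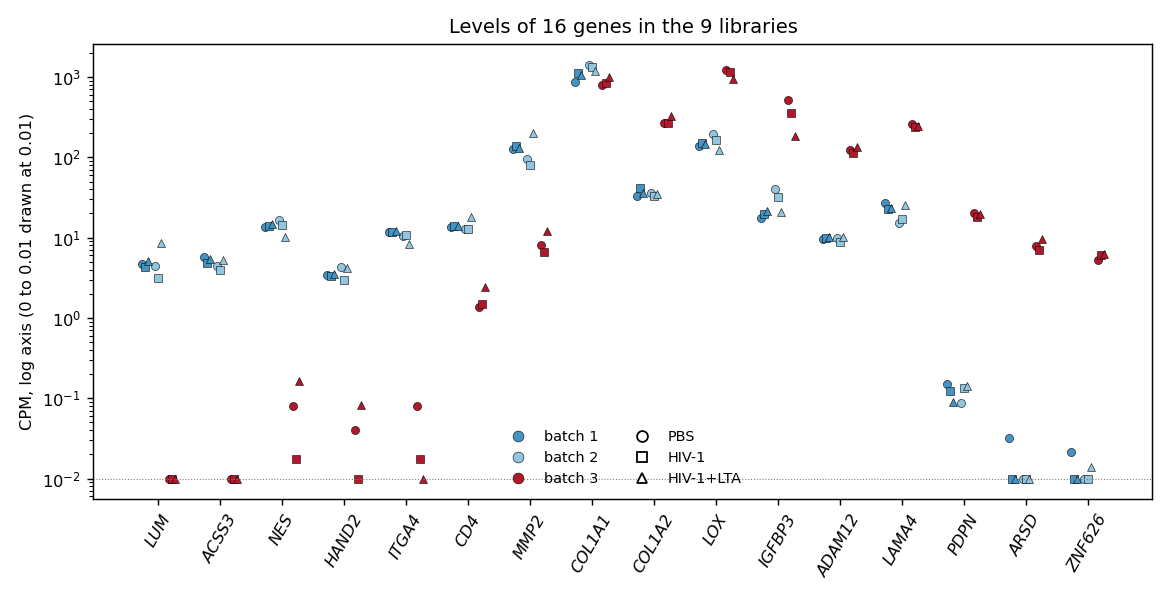
CPM on a log axis of 16 genes in the 9 libraries, coloured by batch and shaped by treatment, with values of 0 to 0.01 drawn at 0.01. LUM and ACSS3 have no reads in batch 3, CD4 and MMP2 are lower there, COL1A2, LOX, ADAM12 and LAMA4 are higher in all 3 batch 3 libraries, and COL1A1 overlaps between the batches.

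ZNF626, ZNF66 and ZNF98 lie in 1 cluster on the short arm of chromosome 19, between 19779605 and 24312770 in hg19, and the whole cluster was then examined, with its limits set after values were seen. The genes of this cluster encode KRAB zinc finger proteins, which bind DNA, many of them at retroelements, and silence it through heterochromatin. Of its 30 tested ZNF genes, 29 were higher in batch 3, 15 of them at least 2-fold, and 0 were lower; the other, ZNF14, was at 11.1 against 10.2 CPM and changed sign under total-count scaling (-0.035). The lowest log2 fold change of the 29 was 0.25, more than the shift of all genes under that scaling. The median log2 fold change was 1.00 (1.13 in PBS, 0.99 in HIV-1 and 0.90 in HIV-1+LTA), and that of batch 2 minus batch 1 was -0.11. Among the other 204 ZNF genes of chromosome 19, 88 were higher and 39 lower with a median of 0.11, and among 237 on other chromosomes 70 were higher and 85 lower with a median of -0.04.

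ZNF626 had 920 reads in batch 3 against 3 elsewhere, a ratio of 843 (95% counting interval from 288). ZNF66 was at 6.62 ± 1.1 CPM (SD, n = 3) against 0.0585 ± 0.035 (n = 6), ZNF43 at 7.34 against 0.272 and ZNF486 at 38.2 against 1.77. Some genes between them changed less, such as ZNF714 (30.6 against 24.4 CPM, log2 fold change 0.33). Others rose about as much, such as ZNF100 (22.1 against 1.03 CPM, 4.42). Reads of such near-identical genes can be split or lost in counting, so the value of any single gene of the cluster is uncertain.

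Promoter sequences were available for 26 of these 30 genes in the RefSeq table (GRCh38.p14). The 250 bases before the start of 3 genes that rose strongly and of ZNF714 are shown, because they hold the same 10-base string although ZNF714 rose far less. Capitals mark TCCAATCAGG, the 10-base string found in most promoters of the cluster, picked after looking at them; it was searched on both strands.
ZNF626, chr19:20661572-20661821, minus strand: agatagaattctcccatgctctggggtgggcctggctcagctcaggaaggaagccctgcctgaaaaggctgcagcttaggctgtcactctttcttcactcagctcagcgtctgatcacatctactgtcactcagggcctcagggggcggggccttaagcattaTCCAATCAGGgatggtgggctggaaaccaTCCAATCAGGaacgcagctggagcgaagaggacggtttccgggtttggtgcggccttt
ZNF486, chr19:20166964-20167213, plus strand: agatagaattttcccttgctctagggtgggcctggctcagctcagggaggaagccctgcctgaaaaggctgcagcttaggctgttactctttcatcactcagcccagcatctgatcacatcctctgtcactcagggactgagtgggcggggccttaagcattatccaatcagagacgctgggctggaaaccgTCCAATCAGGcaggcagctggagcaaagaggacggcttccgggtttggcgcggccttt
ZNF43, chr19:21836183-21836432, minus strand: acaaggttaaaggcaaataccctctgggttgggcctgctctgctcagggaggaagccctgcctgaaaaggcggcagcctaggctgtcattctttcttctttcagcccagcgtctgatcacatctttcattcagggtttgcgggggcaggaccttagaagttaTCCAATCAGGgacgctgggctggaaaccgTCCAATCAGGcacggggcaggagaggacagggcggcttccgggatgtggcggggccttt
ZNF714, chr19:21081953-21082202, plus strand: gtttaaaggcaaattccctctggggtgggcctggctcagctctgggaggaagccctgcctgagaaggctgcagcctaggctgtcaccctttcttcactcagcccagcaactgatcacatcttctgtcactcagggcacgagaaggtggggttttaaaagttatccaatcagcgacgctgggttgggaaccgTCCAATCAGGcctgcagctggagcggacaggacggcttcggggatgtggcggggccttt
The string was in 25 of the 26 promoters, in 13 of 13 of the genes at least 2-fold higher and in 12 of 13 of the others. It was in 29 of 381 promoters of other ZNF genes and in 0.385% of all 27305 promoters of that length. Its first copy began between 88 and 30 bases before the start. It contains CCAAT, the core of a common promoter element, and a match in letters is not a bound site. A CpG-rich promoter (GC of at least 50% and an observed to expected CpG ratio of at least 0.6) was held by 7.69% of the cluster, by 38.1% of the 21 genes silent in batch 3 that had a sequence, and by 72.9% of the tested genes that had one.

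**Figure D3:**
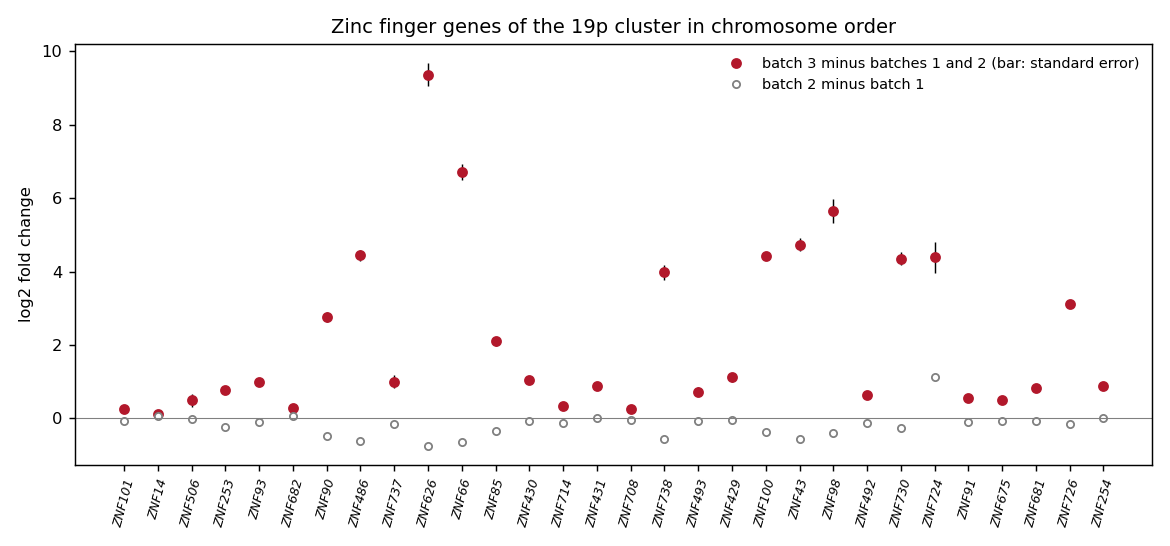
Log2 fold change of the 30 tested ZNF genes of the 19p cluster in chromosome order, for batch 3 minus batches 1 and 2 (red, bars are standard errors) and batch 2 minus batch 1 (open grey). The 15 genes at least 2-fold higher include 7 in a row from ZNF90 to ZNF430, and the other 15 lie between 0.13 and 0.99.

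The stellate label was checked against marker genes. The mesenchymal markers PDGFRB (the PDGF receptor beta, 35.4 ± 3.8 CPM in batch 3, n = 3, and 42.3 ± 4.4 in the rest, n = 6) and THY1 (139 ± 24 and 149 ± 9.6 CPM) were present in every library. PDGFRB was lower by the test (-0.26, SE 0.07) with overlapping libraries, and THY1 missed the threshold (-0.11, adjusted p 0.19), which it passed with total counts (-0.27), without the filter on low counts (-0.13), and without the HIV-1+LTA library of batch 1 (-0.15) or of batch 3 (-0.22). Of 16 tested genes for stellate identity and quiescence, 5 were higher and 7 lower, and the 75% that passed is near the 69.8% of all genes. Changes of at least 2-fold were more frequent, with 43.8% (1 higher and 6 lower) against 19.1% of all genes. Another 6 of the 22 listed genes had too few counts to be tested. NES, the intermediate filament gene nestin, was at 0.08 (PBS), 0.0173 (HIV-1) and 0.165 CPM (HIV-1+LTA) in batch 3, against 10.2, 14.2 and 16.7 CPM in the other 6 (-7.36, SE 0.29). HAND2, a mesenchymal transcription factor of stellate cells, was at 0.04, 0 and 0.0825 CPM against 2.97, 3.47 and 4.36 (-6.48, SE 0.35); its antisense partner HAND2-AS1 fell with it, from 2657 reads to 3, and the strand setting of the counting is not given in the sources used here. PDGFRA fell from 1.67 to 0.398 CPM. VIM, the vimentin gene, named after its value was seen, rose from 704 ± 90 to 2885 ± 376 CPM (2.03, SE 0.07).

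A list of 26 tested mesenchymal lineage transcription factors, drawn up after values were seen, had 13 higher and 9 lower members. Of all genes 34.3% were higher and 35.5% lower. PRRX1 had no reads in batch 3 (0.14 to 0.465 CPM elsewhere), HOXD8 fell from 0.898 to 0.0499 CPM, and HOXA9 rose from 0.0399 to 1.29 CPM. Of 18 macrophage and leukocyte markers 7 had enough counts to be tested, of which 3 fell and 0 rose. Their summed level was 4.64 to 6.56 CPM in batch 3 and 16.8 to 23.9 in the rest, where CD4 alone made up most of it, and the T cell marker CD2 had no read in any library. Of 15 hepatocyte markers 3 had no reads and 1 was tested, SERPINA1, which fell (-1.24), and the tested level was 0.28 to 1.22 CPM against 1.05 to 1.77. Of 9 tested endothelial markers 2 were higher and 4 lower, and of 8 tested epithelial markers 1 was higher and 5 lower; the summed level of the 8 was 598 to 741 CPM in batch 3 and 462 to 609 in the rest. The part of these markers in the gene groups described here was not tested.

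Collagen and matrix genes moved in both directions, some of them by large amounts. Of 24 genes for fibrillar collagens and their processing 8 were higher and 11 lower, near the 34.3% and 35.5% of all genes, with a median log2 fold change of -0.31 where the median over all genes was -0.02. Their summed level was higher in batch 3, at 5028 to 5287 CPM against 4112 to 4986. The 2 chains of type I collagen parted. COL1A2 was at 271 (PBS), 271 (HIV-1) and 323 CPM (HIV-1+LTA) in batch 3, against 33.2 (lowest), 35.5 (median) and 41.1 CPM (highest) in the other 6, an 8-fold rise with no overlap (log2 fold change 3.01, SE 0.07, adjusted p 2.9e-12). COL1A1 was at 794, 846 and 1000.4 CPM against 875, 1155 and 1426, lower by the test but overlapping (-0.41, SE 0.13, adjusted p 0.011). Without the batch 3 PBS library its adjusted p was 0.075, and without the batch 3 HIV-1 library 0.077.

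COL3A1, the type III collagen of soft tissue, fell from 389 to 724 CPM across the 6 libraries to 158, 146 and 273 in batch 3 (-1.46, SE 0.12). LOX, the lysyl oxidase that cross-links collagen, rose to 1236, 1152 and 948 CPM from 122 to 193 (2.86, SE 0.09), and PCOLCE, which speeds the trimming of procollagen, fell to 2.38, 2.56 and 3.49 CPM from 31.7 to 55.8 (-3.78, SE 0.12). Each of these 3 genes separated batch 3 from all other libraries.

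Of 21 basement membrane and other collagen genes 7 were higher and 9 lower, with 76.2% passing against 69.8% of all genes. LAMA4, a laminin chain of vascular basement membrane, rose from 21.8 ± 4.6 to 250 ± 8.4 CPM (3.52, SE 0.13), and COL7A1, the anchoring fibril collagen, fell from 90 ± 9.3 to 16.8 ± 3.0 CPM (-2.43, SE 0.10). Of 21 glycoprotein and proteoglycan genes 7 were higher and 13 lower, with LUM and DCN lost as described and FBLN1 (fibulin 1) raised from 2.08 to 11.8 CPM (2.49, SE 0.16).

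Every tested gene for matrix-degrading enzymes passed the test. Of 19 matrix metalloproteinases, relatives and inhibitors 7 were higher and 12 lower, where 69.8% of all genes passed. MMP2, the gelatinase that stellate cells are known for, was at 8.16, 6.64 and 12 CPM in batch 3 against 79.6, 129 and 200 elsewhere (-3.86, SE 0.20). ADAMTS5, an aggrecanase, fell from 32.1 to 1.44 CPM (-4.45, SE 0.22), MMP16 from 10.6 to 0.341 (-4.95, SE 0.16) and MMP3 (stromelysin 1) from 1.58 to 0.264 (-2.60, SE 0.40). ADAM12, a membrane protease of activated fibroblasts, moved the other way, to 122, 113 and 133 CPM from 8.94 to 10.2 (3.65, SE 0.05). TIMP1, an inhibitor of these enzymes, was at 99.8, 128 and 157 CPM against 201, 214 and 259 (-0.78, SE 0.09).

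Genes of the contractile and mechanical programme were higher more often than lower. Of 19 smooth muscle contractile genes 10 were higher and 3 lower, with a median of 0.39. The 68.4% of them that passed is near the 69.8% of all genes, of which 34.3% were higher and 35.5% lower. Of 21 YAP and TEAD targets 18 were higher and 1 lower (90.5% passing), with a median of 0.46. Both medians stayed above 0 under total-count scaling, at 0.23 and 0.30. ACTA2, the alpha smooth muscle actin that defines activated stellate cells, was at 184 (PBS), 107 (HIV-1) and 72.0 CPM (HIV-1+LTA) in batch 3 and at 95.3, 121 and 218 CPM in the rest, with no difference past the threshold (-0.19, SE 0.20, adjusted p 0.40). It was called lower without the PBS library of batch 1 (-0.38, adjusted p 0.0002), without all of batch 1 (-0.35, adjusted p 0.00011) and without the filter on low counts (-0.22, adjusted p 0.00032). CNN1 (calponin) rose from 22.2 to 61 CPM (1.46, SE 0.16), TNS1 (tensin, an actin anchor at adhesions) from 169 to 508 (1.57, SE 0.09) and TAGLN (transgelin) from 925 to 1867 (0.99, SE 0.14). ACTG2, the enteric smooth muscle actin, fell from 23 to 1.18 CPM (-4.28, SE 0.36).

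The YAP targets CCN2 (connective tissue growth factor, 238 to 657 CPM, 1.43), ANKRD1 (213 to 711 CPM, 1.67) and F3 (tissue factor, 182 to 535 CPM, 1.55) rose. TGFB1 itself was lower at 32 ± 1.4 against 38.6 ± 1.7 CPM (-0.27, SE 0.06). Of 23 TGF-beta targets 11 were higher and 8 lower, where all genes had 34.3% and 35.5%. Their median was 0.22 (0.06 under total-count scaling). Changes of at least 2-fold were seen in 21.7% of them (4 higher and 1 lower), where all genes had 19.1%. Their summed level was 8778 to 15430 CPM in batch 3 and 3848 to 6635 in the rest.

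Among 28 growth factors and receptors 13 were higher and 6 lower, where all genes had 34.3% and 35.5%. The 67.9% of them that passed is near the 69.8% of all genes. IGFBP3, an insulin-like growth factor binding protein, was at 525, 358 and 185 CPM against 17.5, 21.1 and 40.4 (3.73, SE 0.22). FGF5 rose from 16.2 ± 3.9 to 165 ± 43 CPM (3.34, SE 0.11) and EGF from 3.61 to 11.5 (1.62, SE 0.20, with overlap), whereas PDGFD fell from 1.70 to 0.248 CPM (-2.81, SE 0.30). Of 20 WNT pathway genes 7 were higher and 8 lower, near the shares of all genes. The WNT transcription factor LEF1 fell from 6.11 to 0.187 CPM (-5.02, SE 0.18) while its relative TCF7 rose from 1.47 to 4.25 (1.52, SE 0.15). DKK2, a WNT antagonist, had no reads in batch 3 (0.704 to 0.988 CPM elsewhere).

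CD4, the primary receptor of HIV-1, was at 1.36 (PBS), 1.51 (HIV-1) and 2.43 CPM (HIV-1+LTA) in batch 3, against 12.8 (lowest), 13.7 (median) and 18.2 CPM (highest) in the other 6 (-3.03, SE 0.14, adjusted p 6.5e-10), so that no batch 3 library came near the others. The co-receptor gene CXCR4 had at most 16 reads in any library and was not tested. Of the 9 tested genes on a list of HIV-1 receptors and attachment factors, drawn up after values were seen, 3 were higher and 4 lower. That split is near the 34.3% higher and 35.5% lower of all genes. The 4 lower were ITGA4, CD4, the chemokine receptor ACKR3 (5.75 to 1.41 CPM) and the proteoglycan gene SDC4, and the heparan sulfate proteoglycan genes SDC1 (93.6 to 191 CPM) and SDC3 (101 to 169) were higher.

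TLR2, which binds LTA, was at 0.02, 0.0865 and 0.165 CPM in batch 3 against 0.333, 0.375 and 0.523 (-2.13, SE 0.46), a low level in every library. Its partner TLR1 was at 0.52, 0.45 and 0.681 CPM against 0.902, 1.47 and 2.17 (-1.41, SE 0.30). The co-receptor CD14 was at 2.34, 3.05 and 4.21 CPM against 5.78, 7.08 and 9.72 (-1.18, SE 0.14). Batch 3 was lowest for all 3, without overlap. TLR3, a sensor of double-stranded RNA, fell from 2.63 to 0.191 CPM (-3.79, SE 0.44) and the NF-kB regulator IKBKG from 12.9 to 5.99 (-1.11, SE 0.10). Of 23 genes of this recognition and signalling list, also drawn up after values were seen, 5 were higher and 13 lower, with a median of -0.35. Of all genes 34.3% were higher and 35.5% lower.

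CXCL8, which encodes the chemokine IL-8 named in the study's title, was at 3.88, 3.89 and 3.86 CPM in batch 3 and at 2.58, 4.09 and 6.42 CPM elsewhere (-0.08, SE 0.18, adjusted p 0.71). Of 24 NF-kB targets 9 were higher and 11 lower, where all genes had 34.3% and 35.5%. VCAM1, a leukocyte adhesion receptor, rose from 0.224 to 4.31 CPM (4.26, SE 0.35), PTX3 (pentraxin 3) from 34.6 to 272 (2.97, SE 0.11) and the NF-kB inhibitor TNFAIP3 from 7.34 to 33.0 (2.15, SE 0.13). ICAM1 fell from 28.7 to 9.20 CPM (-1.63, SE 0.10) and TNFRSF9 from 10.6 to 1.46 (-2.84, SE 0.15). Of 23 chemokine and cytokine genes 5 were higher and 9 lower, among them CCL26 (1.79 to 8.12 CPM), CXCL5 (2.43 to 0.121) and LIF (6.98 to 1.22).

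Of 19 genes for MHC class I and antigen processing 12 were lower and 2 higher (35.5% and 34.3% of all genes), with a median of -0.31. HLA-B was at 116, 101 and 101 CPM in batch 3 against 302, 316 and 449 (-1.68, SE 0.11), and B2M, the shared light chain, at 1261, 1084 and 1261 against 2199, 2501 and 3388 (-1.10, SE 0.09). HLA genes are highly similar to each other and their counts are uncertain. ERAP2, a peptide-trimming enzyme, rose from 96.2 to 213 CPM (1.14, SE 0.09). Of 37 interferon-stimulated genes 13 were higher and 17 lower, where all genes had 34.3% and 35.5%; IFITM1, which restricts virus entry, fell from 20.4 to 3.93 CPM (-2.41) and the RNA sensor IFIH1 from 4.57 to 1.37 (-1.83), and SAMD9L, a translation inhibitor, rose from 33.1 to 82.9 (1.31).

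**Figure D4:**
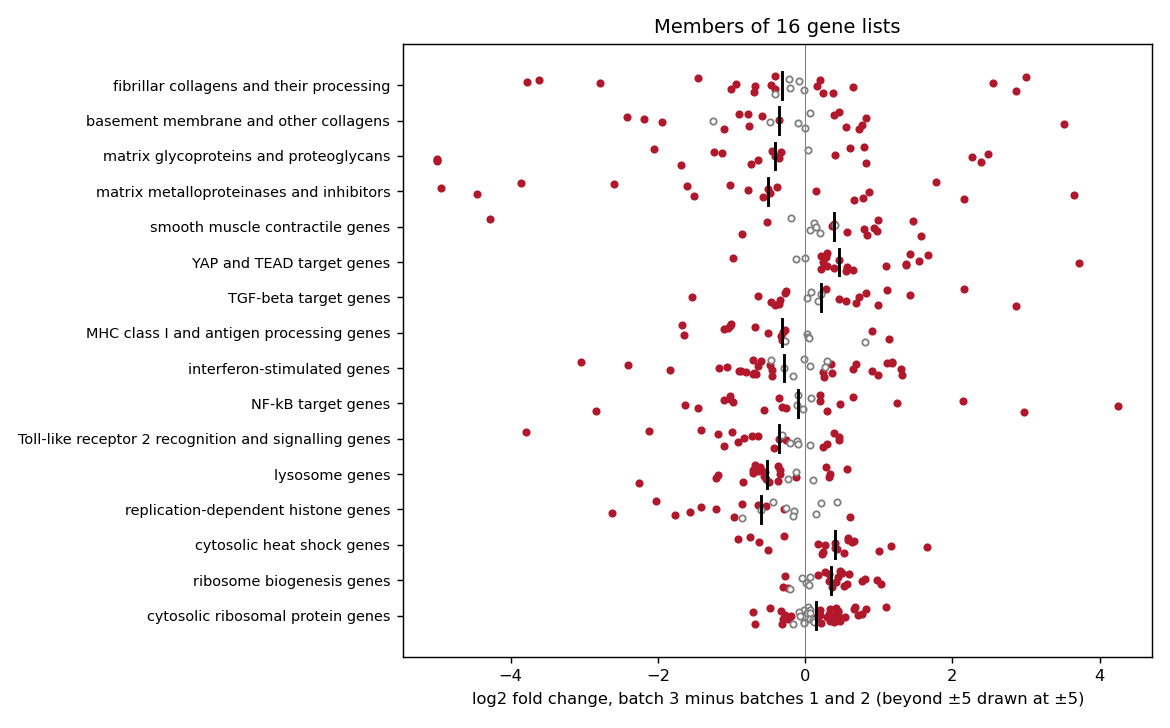
Log2 fold change, batch 3 minus batches 1 and 2, of the tested members of 16 gene lists, filled red where the adjusted p was below 0.05 and open otherwise, with black bars at list medians. YAP and TEAD targets (18 of 21 higher) and lysosome genes (19 of 26 lower) lie mostly on opposite sides of 0, while the matrix lists spread widely to both sides. Of all genes 34.3% were higher and 35.5% lower.

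Of 26 lysosome genes 19 were lower and 4 higher, where all genes had 35.5% and 34.3%, with a median of -0.51. ATP6AP1, a subunit of the proton pump, was at 46.1, 44.7 and 48.2 CPM against 104, 106 and 118 (-1.22, SE 0.05). NPC2, a cholesterol carrier, was at 39.5 against 89.6 (-1.19, SE 0.08). Of 21 replication-dependent histone genes 11 were lower and 1 higher, with a summed level of 101 to 122 CPM in batch 3 and 250 to 305 in the rest. The 57.1% that passed is below the 69.8% of all genes. H1-2 fell from 108 ± 9 to 26.8 ± 4.8 CPM (-2.02, SE 0.10) and H2BC21 from 39.7 to 6.48 (-2.62, SE 0.11). These transcripts mostly lack a poly(A) tail, and the RNA selection used for the libraries is not given in the sources used here. DNA replication genes, with 9 of 30 higher and 12 lower, and mitosis genes, with 15 of 30 higher and 8 lower, had medians of -0.08 and 0.12, the second -0.04 under total-count scaling. Of these lists 70.0% and 76.7% passed, against 69.8% of all genes. KIF20A and CCNB1 (cyclin B1) rose from 388 to 707 and from 483 to 866 CPM, and the p53 target CDKN1A fell from 40.6 to 15.9 CPM (-1.35, SE 0.16).

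All 20 cytosolic heat shock genes passed the test, 15 higher and 5 lower (median 0.41). Of all genes 69.8% passed, 34.3% higher and 35.5% lower. HSPB1 rose from 31.8 to 71.8 CPM (1.17, SE 0.07), and HSPH1 fell from 518 to 275 (-0.92, SE 0.09). Of 24 ribosome biogenesis genes 16 were higher and 3 lower (median 0.35), with POLR1A, the catalytic subunit of RNA polymerase I, at 223 ± 14 against 109 ± 8.4 CPM (1.03, SE 0.05). Of 48 cytosolic ribosomal protein genes 26 were higher and 9 lower (median 0.15, and -0.01 under total-count scaling), from RPS3A (537 to 1152 CPM, 1.10) to RPS15 (114 to 70.2 CPM, -0.70). The 72.9% of ribosomal protein genes that passed is near the share of all genes. Glycolysis genes split evenly, 9 of 22 in each direction, with the hexokinase HK2 (54.3 to 122 CPM, 1.18) and PFKP (88.1 to 200 CPM, 1.18) higher and the liver-type phosphofructokinase PFKL (73.9 to 32.3 CPM, -1.21) lower.

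Neighbouring genes moved together over long stretches of chromosomes. The 9225 genes that averaged 10 CPM or more and had a position in hg19 were divided in genome order into 230 windows of about 40 genes, without regard to function. The window medians ranged from -0.98 to 0.80 with an SD of 0.352, against -0.09 to 0.15 and 0.0434 for batch 2 minus batch 1. In 62 windows the median was beyond 0.4 on the log2 scale, a limit set after values were seen, 37 above and 25 below, and in 0 for batch 2 minus batch 1. All 62 kept their sign under each of the 3 treatments, which their choice on the same libraries made likely. Across all 230 windows, chosen or not, the medians correlated at r = 0.983 to 0.991 between treatments. Windows accounted for 29.2% of the variance of the gene-wise differences, and for 15.1% in batch 2 minus batch 1. After adjustment for transcript GC content, chosen after seeing the data, 51 of the 62 stayed beyond 0.4 with the same sign.

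On chromosome 14 both windows between 70833216 and 99947226 were low (-0.94 and -0.93, with 2.5% and 5% of genes above 0), although those between 36767770 and 61191069 were at 0.43. The end of the long arm of the X chromosome, from 122734412 to 154948759, held the lowest window (-0.98) and another at -0.83, the first window of chromosome 4 was at -0.88, and both windows of chromosome 21 were at -0.78 and -0.60. All 4 windows of chromosome 13 were low (-0.78 to -0.44), and in the first of them 0% of genes were above 0. On the high side, 5 consecutive windows on the short arm of chromosome 2, from 217730 to 70529199, were at 0.57 to 0.80, both windows from 176028 to 38439221 of chromosome 10 at 0.76 and 0.69, 5 at the end of chromosome 11, from 71817424 to 134135749, at 0.49 to 0.76, and 7 on chromosome 5, from 64859063 to 157187717, at 0.46 to 0.71. DNA copy number was not measured in these samples.

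**Figure D5:**
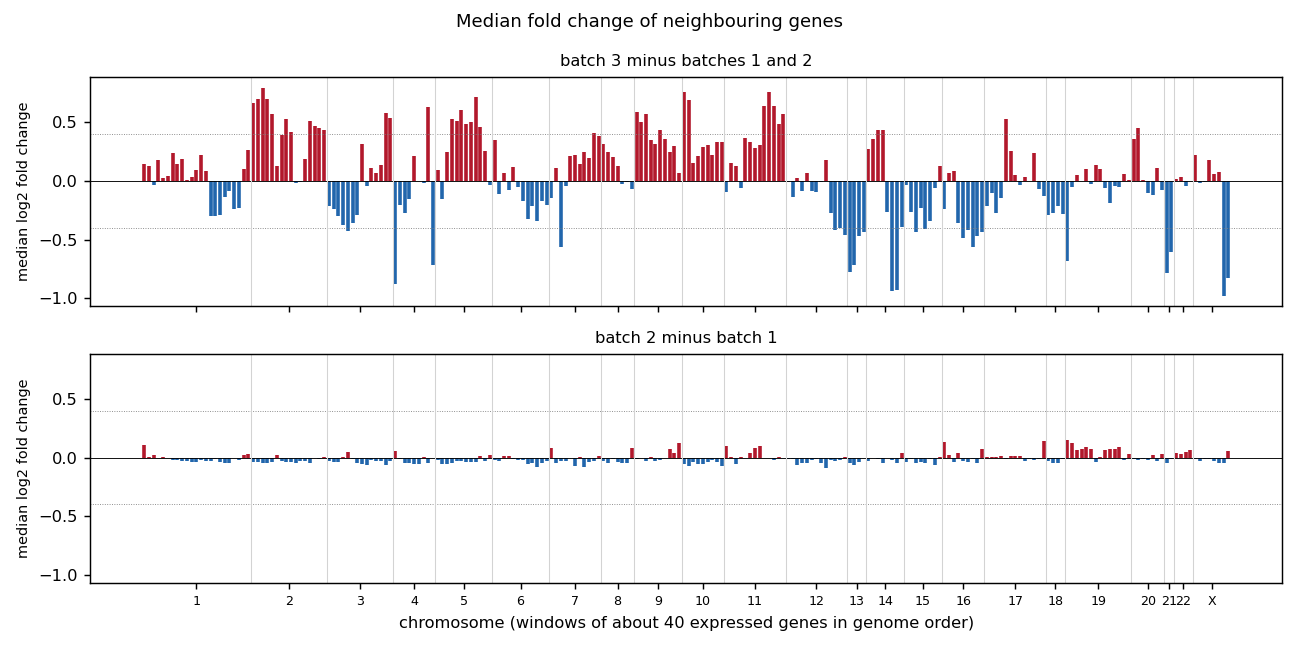
Median log2 fold change of 230 windows of about 40 consecutive expressed genes in genome order, for batch 3 minus batches 1 and 2 (top) and batch 2 minus batch 1 (bottom), with dotted lines at ±0.4. Batch 3 shows runs of high windows on chromosomes 2, 5, 9, 10 and 11 and low windows on 4, 13, 14, 16, 21 and X, and the lower panel stays between -0.09 and 0.15.

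Some of the genes named above shared the shift of their surroundings and others did not. ATP6AP1 and IKBKG, both at the end of the X chromosome, had differences of -1.22 and -1.11 where the median of their 40 nearest expressed genes was -0.81 for each. NPC2 on chromosome 14 was at -1.19 among neighbours at -0.92, RFC3 on chromosome 13 at -0.88 among neighbours at -0.81, and RPS3A, RPS6, RPS23 and RPS25 were higher in surroundings at 0.41 to 0.56. Neighbours of COL1A2 (0.23), ADAM12 (0.32), LUM (0.22), PDPN (0.09), CD4 (-0.12), SEMA3A (0.18) and ITGA4 (-0.11) were near 0 by comparison with those genes' own differences. Of 760 called genes in the windows with at least a 2-fold change, 381 were still at least 2-fold after the window median was subtracted. Net of their neighbours, the median was 0.56 for YAP and TEAD targets, 0.41 for contractile genes, -0.53 for MHC class I genes and -0.27 for lysosome genes, and that of the heat shock list went from 0.41 to 0.13.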

How the data were processed

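9 RNA-seq libraries were used. The authors deposited raw read counts per gene symbol; per the series' design text and the submitters' processing notes, reads were aligned with STAR and counted with HTSeq on hg19 annotation, with fastp and SAMtools also named. Versions and strand setting are not given in the sources used here. Counts were analysed as deposited with edgeR 4.0.16 in R 4.3.3 (filterByExpr, TMM, quasi-likelihood F test, treatment as covariate, Benjamini-Hochberg adjusted p below 0.05). CPM values use TMM-scaled totals, and log2 CPM a prior count of 2. Fits with 3 batch levels gave batches 2 and 1 and the pairs with batch 3, and an interaction fit the dependence on treatment. DESeq2 1.42.0, limma-voom 3.58.1 and other settings were alternatives. The test was run on simulated counts of 15738 genes, with 66 or 67 genes changed at each of 1.5-, 2- and 4-fold. It recovered 74.6%, 85.1% and 89.4% of them, with 11 false calls. Few genes were changed there, so that run does not cover calling or scaling where most genes differ.

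The replicate number is the batch in the labels, so the numbers pair samples across treatments; batch is the comparison itself here. Positions and types came from the GENCODE annotation lifted to GRCh37, promoters from RefSeq. The 2 ChIP libraries were not used. Reads per library bound the precision; counting intervals and floors cover counting error only. Batch 3 and the gene lists were chosen with earlier results of these data known, and 3 lists were added after values were seen. Named genes are 8 stellate and study genes, the 15 highest and 15 lowest protein-coding genes that passed without overlap at a mean of at least 1 CPM, the 5 lowest interaction p-values, and per list up to 5 passing members by size and up to 3 others by level. Some genes that the rule selects are not reported here.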

Additional observations from a re-analysis of the deposited data

Results flagged for a closer look

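In 16 of the 139 named genes, 1 of the 6 libraries of batches 1 and 2 stood apart from the other 5, with a gap to its nearest neighbour of more than 0.625 of the whole range in log2 CPM (Dixon's 95% limit). Chance alone flags about 1 in 20 groups of libraries that were treated alike. These 6 libraries held different treatments and served all 139 genes, so that rate is no yardstick here. In 12 of them it was the HIV-1+LTA library of batch 2. That library was highest for TIMP1 (gap over range 0.694), HLA-B (0.638), VCAM1 (0.688), CD4 (0.72), ATP6AP1 (0.832), CDKN1A (0.96), B3GAT1 (1.0) and CNTN5 (0.864). It was lowest for ITGA4 (0.667), VIM (0.65), RFC3 (0.699) and the glycolysis regulator PFKFB3 (0.738). The PBS library of batch 1 was highest for ARSD (1.0) and ZNF66 (0.682), the PBS library of batch 2 lowest for PDGFD (0.664), and the HIV-1 library of batch 2 highest for CES1 (1.0). For ARSD, B3GAT1 and CES1 the gap is 1 to 3 reads in that library against none in the other 5.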

How the results depend on the processing

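The 11255 calls became 11259 with DESeq2's size factors, 11458 with total counts, 11657 without a filter, 11055 with DESeq2, 11125 with limma-voom, 11035 without the treatment covariate, 11140 without batch 1 and 10627 without batch 2. They became 7268 among genes of at least 10 CPM, where fewer genes were tested, and 4094 against a null of 1.5-fold. With the replicate block (batch as 3 levels) there were 11478. Leaving out 1 library gave 10025 to 11526 calls, 9663 to 11039 for batch 3 against batch 1 and 9910 to 11474 against batch 2. The 5 genes of batch 2 against batch 1 became 105 with DESeq2 and 8 with limma-voom, and 1 to 214 without 1 library, the most without the HIV-1+LTA library of batch 1 (214) or of batch 2 (127); the cause was not tested. The interaction gave 2 genes with DESeq2. The difference in CXCL8 turned to 0.0054 without the HIV-1+LTA library of batch 2 and to 0.16 without that of batch 3, with -0.28 to 0.16 over all libraries left out, and that in ZNF14 to -0.035 with total counts. Of 135 named genes that passed, 129 kept call and direction under every alternative that tested them (73 of the 139 had at least 10 CPM); COL1A1, PDGFRB, TGFB1, RPS15, SDC4 and ZNF714 did not pass against 1.5-fold. Of 42 list medians 17 changed sign under some alternative, among them stellate identity (0.30 at 10 CPM or more). Windows beyond 0.4 were 27.0% of all, 27.5% with 20 genes a window, 24.6% with 80 and 23% after GC adjustment, alternatives chosen after seeing the data.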
